A study of Homo sapiens with 18 samples.

Results

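The genes described here are 33 genes of the hypoxia response that do not belong to glycolysis, taken by symbol from gene count tables of 23710 genes each. They comprise the oxygen-sensing core (HIF1A, EPAS1, ARNT, VHL, HIF1AN, EGLN1, EGLN3), the carbonic anhydrases CA9 and CA12, the secreted factors ADM, VEGFA and ANGPTL4, and the mitochondrial and cell death genes BNIP3, BNIP3L and FAM162A. Enzymes of collagen and oxidative protein folding (P4HA1, P4HA2, PLOD1, PLOD2, LOX, ERO1L), histone demethylases (KDM3A, KDM4B), transcriptional repressors (BHLHE40, BHLHE41, MXI1) and 7 further responders (NDRG1, ANKRD37, INSIG2, GBE1, TMEM45A, WSB1, PPFIA4) complete the set. The choice of genes used no measured value, although it was made with earlier results of these data known.

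The study asked which genes respond to EHF, an ETS-family transcription factor of epithelial cells, in 3 established human cell lines of head and neck squamous carcinoma. A253 cells with EHF overexpression gave 3 RNA-seq libraries and A253 controls gave 3. SCC25 cells with EHF overexpression gave 2 libraries and SCC25 controls gave 2. CAL27 cells with EHF knockdown gave 2 libraries for each of the hairpins sh 64 and sh 65, and CAL27 controls gave 2. The deposited data conflict on which hairpin is which, so the names sh 64 and sh 65 may be exchanged throughout. A253 was derived from a salivary gland tumour, and SCC25 and CAL27 from tongue tumours. Overexpression was induced with 1 µg of doxycycline while controls grew in regular medium, so the drug and EHF cannot be told apart in A253 and SCC25. CAL27 cells of every group grew in regular medium. The labels do not say what the control cells carried or whether replicates were separate cultures, so p-values measure only the spread between these libraries. No group was labelled as hypoxic.

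Cells sense oxygen through prolyl hydroxylases of the EGLN family, which mark the HIF alpha subunits (HIF1A and EPAS1, also called HIF-2 alpha) for ubiquitination by the VHL complex. When oxygen is low, the alpha subunits escape this mark, pair with ARNT and bind short hypoxia response elements beside genes that regulate pH, angiogenesis, mitophagy, matrix maturation and chromatin. HIF1AN hydroxylates the alpha subunits at another residue and limits their transcriptional activity. Much of this control acts on protein stability, which RNA counts do not measure. Hypoxia and HIF target expression are common in head and neck squamous carcinoma.

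Promoters of these genes were examined as a description only. Of the 33 genes, 29 had a RefSeq promoter window (GRCh38.p14) of 300 bases, from 250 before to 50 after a transcription start, giving 36 windows in all. VHL, VEGFA, NDRG1 and BNIP3L had no such window. Letters of the hypoxia response core (ACGTG or GCGTG, either strand) were present in 29 of 36 windows, or 80.6%, against 48.4% of 35116 windows of all genes. The genes were listed as part of the hypoxia response, so a higher share of this core may follow from the choice of list. A link of these letters to the changes below was not tested. The ETS core GGAAG (either strand) was present in 80.6% of the 36 windows, against 71.9% of all windows, and the longer CCGGAAG, which contains the ETS core, in 11.1%, against 10.3%. The 250 bases before the start are printed for ERO1L, the gene called in all 3 lines, and for FAM162A, called in 2 lines. They are also printed for P4HA1 and BHLHE40, which were among the 10 genes called different between the hairpins, and for EGLN3, the largest change in A253. Capitals mark the letters ACGTG and GCGTG or their reverse complements, and each sequence runs 5′ to 3′ along the strand of the gene.
ERO1L (chr14:52695559-52695808, minus strand): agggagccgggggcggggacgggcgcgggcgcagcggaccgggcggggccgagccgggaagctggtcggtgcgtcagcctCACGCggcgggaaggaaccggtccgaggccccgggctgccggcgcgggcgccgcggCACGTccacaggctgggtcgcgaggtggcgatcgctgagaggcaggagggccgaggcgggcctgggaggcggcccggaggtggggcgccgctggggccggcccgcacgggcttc
FAM162A (chr3:122383932-122384181, plus strand): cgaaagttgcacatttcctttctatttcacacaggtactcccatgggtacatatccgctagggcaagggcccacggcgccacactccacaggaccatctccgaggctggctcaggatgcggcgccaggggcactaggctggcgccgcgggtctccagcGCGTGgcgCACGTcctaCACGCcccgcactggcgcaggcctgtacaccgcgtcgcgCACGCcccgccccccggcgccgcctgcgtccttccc
P4HA1 (chr10:73096867-73097116, minus strand): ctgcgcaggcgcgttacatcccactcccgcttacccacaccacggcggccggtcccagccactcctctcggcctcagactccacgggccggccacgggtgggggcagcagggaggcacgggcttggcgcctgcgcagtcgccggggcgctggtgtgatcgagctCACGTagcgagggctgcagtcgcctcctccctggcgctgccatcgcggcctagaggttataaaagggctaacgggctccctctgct
BHLHE40 (chr3:4979187-4979436, plus strand): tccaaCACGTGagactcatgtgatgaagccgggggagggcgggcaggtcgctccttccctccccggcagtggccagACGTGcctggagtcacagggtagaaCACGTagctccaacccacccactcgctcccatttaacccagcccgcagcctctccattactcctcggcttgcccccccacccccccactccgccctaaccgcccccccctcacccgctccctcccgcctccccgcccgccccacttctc
EGLN3 (chr14:33951075-33951324, minus strand): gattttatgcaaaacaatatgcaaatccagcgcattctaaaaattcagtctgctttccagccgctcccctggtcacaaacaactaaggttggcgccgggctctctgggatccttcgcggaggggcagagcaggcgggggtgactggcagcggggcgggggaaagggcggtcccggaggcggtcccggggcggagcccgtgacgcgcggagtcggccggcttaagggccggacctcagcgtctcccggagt
FAM162A held 4 matches, at 92, 84, 75 and 36 bases before its start. BHLHE40 held 4 matches, 2 of them overlapping on opposite strands at 245 and 244 bases before the start. ERO1L held matches at 170 and 114 bases before its start and P4HA1 held 1 at 86 bases. EGLN3 held none in this window. TMEM45A, not printed here, differed more between the hairpins than P4HA1 or BHLHE40 and held none in its window of 300 bases. A match describes letters only, and binding was not measured here.

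Library totals ran from 7068155 to 19962159 counts. EHF, the manipulated gene, stood at 765, 711 and 633 CPM (counts scaled to a TMM-adjusted library total) in overexpressing A253 libraries, against 84.5, 91.4 and 83.2 in A253 controls. It stood at 860 and 892 CPM in overexpressing SCC25 libraries, against 461 and 420 CPM in SCC25 controls. In CAL27 it had 497 and 526 CPM with sh 64 and 444 and 469 CPM with sh 65, against 962 and 992 CPM in controls. EHF therefore changed in its labelled direction in every line, 8.13-fold in A253 and 1.99-fold in SCC25, with 0.523 times the control level under sh 64 and 0.467 times under sh 65. Summed squamous markers ran from 6646 to 15863 CPM over all libraries, and salivary markers were at 0.147 CPM or below in every A253 and SCC25 library and at 8.95 to 29.6 CPM in CAL27. The salivary gland origin of A253 was thus not visible in these markers. In CAL27 the squamous sum was 9174 to 11393 CPM with knockdown, against 6646 and 6965 CPM in controls, and its part in the results below was not tested. Leukocyte markers summed to 8.68 to 10.3 CPM in overexpressing A253 libraries, against 5.24 to 5.58 CPM in controls, and to 39.1 and 46 CPM in overexpressing SCC25 libraries, against 34.4 and 31.2 CPM in controls. CD14, a monocyte receptor, rose in both lines, 2.64-fold in A253 (adjusted p = 1.25e-05, by the edgeR test used throughout) and 1.33-fold in SCC25 (adjusted p = 0.00134). Fibroblast markers summed to 6.84 to 7.9 CPM in overexpressing A253 libraries, against 9.1 to 11.2 CPM in controls, and to 110 and 108 CPM in overexpressing SCC25 libraries, against 98.4 and 87.8 CPM in controls. In CAL27 they summed to 14.2 and 16.7 CPM with sh 64 and 8.72 and 9.32 CPM with sh 65, against 8.96 and 8.08 CPM in controls. The part of both lists in the results below was not tested. Endothelial markers summed to at most 7.41 CPM in any library.

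Transcript abundance was compared between lines per length, as TPM (a share of transcripts, corrected for length) in control libraries. HIF1A averaged 346 ± 19.3 TPM in CAL27 (SD, n = 2), 197 ± 4.65 TPM in A253 (SD, n = 3) and 150 ± 10.4 TPM in SCC25 (SD, n = 2), and its libraries did not overlap between lines. ERO1L, the oxidase that reoxidises protein disulfide isomerase in the endoplasmic reticulum, was at nearly one level, with 127 ± 11.3 TPM in A253, 133 ± 0.921 TPM in SCC25 and 131 ± 3.08 TPM in CAL27, within the spread of the A253 libraries. CA9, a cell-surface carbonic anhydrase and a classical HIF1A target, averaged 121 ± 1.89 TPM in A253, 11.6 ± 1.53 TPM in CAL27 and 1.40 ± 0.476 TPM in SCC25. CA12, a related carbonic anhydrase, had another order, with 76.0 ± 3.95 TPM in SCC25, 9.59 ± 0.924 TPM in A253 and 1.24 ± 0.461 TPM in CAL27. NDRG1, a stress-responsive protein induced by low oxygen, averaged 396 ± 21.9 TPM in SCC25, 293 ± 5.81 TPM in A253 and 20.9 ± 2.36 TPM in CAL27. BNIP3, a mitophagy receptor, averaged 486 ± 10.8 TPM in A253, 71.5 ± 6.11 TPM in CAL27 and 70.0 ± 2.11 TPM in SCC25, where CAL27 and SCC25 overlapped. The lines therefore entered the experiment with unlike levels of several hypoxia targets. These levels come from separate tables, and growth medium differed by line.

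**Figure D1:**
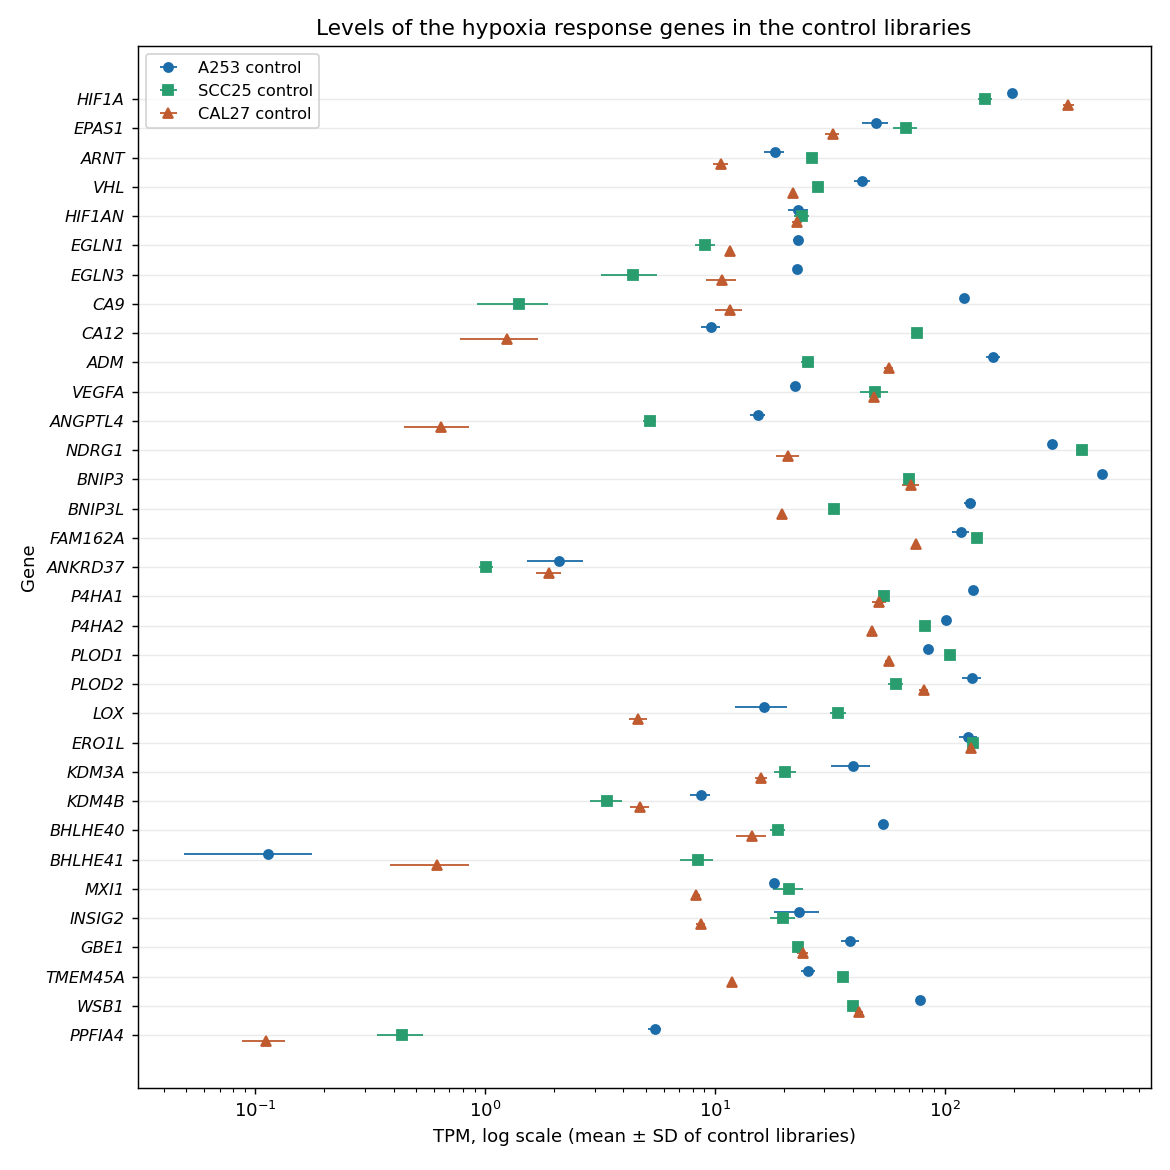
Mean TPM (log axis) of each of the 33 genes in control libraries of A253 (circles, n = 3), SCC25 (squares, n = 2) and CAL27 (triangles, n = 2), with SD bars. ERO1L is nearly level across lines at 127 to 133 TPM, while CA9 runs between 1.40 TPM in SCC25 and 121 TPM in A253.

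In A253, EHF overexpression raised 4 of 32 tested genes and lowered none. The 4 were EGLN3, PLOD2, NDRG1 and ERO1L, and EGLN3, an oxygen-sensing prolyl hydroxylase that HIF itself induces, was the largest. EGLN3 had 58.1, 55.0 and 56.1 CPM in overexpressing libraries, against 31.5, 29.5 and 31.7 CPM in controls. All 3 overexpressing libraries lay above all controls, and the rise was 1.83-fold (log2 change 0.87, SE 0.069, adjusted p = 3.9e-07). Here and below the adjusted p is from edgeR's quasi-likelihood test with Benjamini-Hochberg adjustment over all tested genes, at a threshold of 0.05. The other prolyl hydroxylase of the list, EGLN1, had a log2 change of 0.01 (SE 0.065, adjusted p = 0.98).

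PLOD2, a lysyl hydroxylase that prepares collagen for cross-linking, had 319, 334 and 365 CPM in overexpressing A253 libraries, against 280, 271 and 245 CPM in controls. The groups did not overlap, and the rise was 1.28-fold (adjusted p = 0.00333). NDRG1 had 621, 610 and 583 CPM in overexpressing libraries, against 498, 496 and 524 CPM in controls, a rise of 1.20-fold (adjusted p = 0.0123). ERO1L had 275, 229 and 252 CPM in overexpressing libraries, against 202, 220 and 201 CPM in controls, a rise of 1.21-fold (adjusted p = 0.0208). The overexpressing libraries lay above the controls for each of these genes, with the narrowest gap for ERO1L, at 229 CPM against 220 CPM.

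Across all 14503 genes tested in A253, 5.03% were called higher and 2.94% lower, against 4 and 0 of the 32 hypoxia genes. The median log2 change of the 32 was 0.02, beside -0.0034 over all genes. At an unadjusted p under 0.05, 9 were higher and 4 lower, and DESeq2 also called 4 higher and 0 lower. The subunits themselves were not called: HIF1A had a log2 change of 0.15 (adjusted p = 0.157) and EPAS1 of -0.24 (adjusted p = 0.0997). BHLHE41 was too low for testing in A253, at 0.361 CPM or below in every library. Without control replicate 1 the NDRG1 call was lost (adjusted p = 0.0958), and ERO1L lost its call without any one of control replicates 1 and 3 and overexpression replicates 1 and 3, where its adjusted p reached 0.13.

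In SCC25, 4 of 32 tested genes rose and 3 fell. The rises were BHLHE41, ADM, TMEM45A and ERO1L, and the falls were CA9, CA12 and FAM162A, so both carbonic anhydrases of the list fell. CA12 had 124 and 127 CPM in overexpressing libraries, against 157 and 154 CPM in controls, 0.809 times the control level (log2 change -0.31, SE 0.051, adjusted p = 7.32e-05). CA9 had 0.472 and 0.399 CPM in overexpressing libraries, from 5 and 6 counts, against 1.36 and 0.879 CPM in controls, from 22 and 13 counts. Its groups did not overlap (log2 change -1.38, SE 0.46, adjusted p = 0.0317), but the level was near the detection limit.

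BHLHE41, a basic helix-loop-helix repressor of the clock and hypoxia pathways, had 24.0 and 24.2 CPM in overexpressing SCC25 libraries, against 17.9 and 14.9 CPM in controls. This was the largest rise of the set in SCC25, at 1.46-fold (adjusted p = 0.000292). ERO1L had 269 and 271 CPM in overexpressing libraries, against 220 and 234 CPM in controls, a rise of 1.19-fold (adjusted p = 0.000608). ADM, which encodes the vasodilator peptide adrenomedullin, averaged 24.1 ± 3.39 CPM with overexpression and 19.0 ± 1.90 CPM in controls (SD, n = 2 each; adjusted p = 0.0136). FAM162A, a mitochondrial protein linked to hypoxia-induced cell death, had 50.7 and 50.3 CPM in overexpressing libraries, against 57.5 and 61.7 CPM in controls, and fell to 0.848 times the control level (adjusted p = 0.00893). TMEM45A, a transmembrane protein of epithelia, averaged 36.2 ± 4.90 CPM with overexpression and 29.0 ± 0.898 CPM in controls (adjusted p = 0.00744).

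EGLN3 in SCC25 had 4.72 and 4.99 CPM in overexpressing libraries, against 7.17 and 5.14 CPM in controls, and was not called (log2 change -0.34, adjusted p = 0.196). NDRG1 had 686 and 763 CPM in overexpressing libraries, against 718 and 701 CPM in controls, and the groups overlapped (log2 change 0.03, adjusted p = 0.746). Over all 14120 genes tested in SCC25, 12.2% were called higher and 11.6% lower, so 4 and 3 of 32 lie near this background. The median log2 change was 0.03, beside 0.0026 over all genes. DESeq2 called 2 genes higher and 1 lower. It did not call ADM, FAM162A or TMEM45A, and each of these lost its edgeR call without 1 or more libraries, overexpression replicate 2 among them. CA9 had no adjusted p in DESeq2, which filtered it for low counts, and lost its edgeR call without control replicate 1 or either overexpression replicate (adjusted p up to 0.253), while CA12, BHLHE41 and ERO1L kept theirs under all 8 alternatives.

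The overexpression effects differed between the lines for 5 of 33 genes by a test of the difference itself, the effect in SCC25 minus the effect in A253. ADM was higher in this difference, and HIF1A, EGLN3, CA9 and FAM162A were lower, beside 2.39% of 15460 genes called higher and 3.25% called lower. EHF itself differed by -2.05 (log2, adjusted p = 5.56e-10), rising 1.99-fold in SCC25 and 8.13-fold in A253. Cell line and size of the EHF change therefore cannot be told apart in these differences. EGLN3 differed by -1.23 (log2, SE 0.17, adjusted p = 0.00027), with a log2 change of -0.34 in SCC25 and 0.87 in A253. CA9 differed by -1.48 (SE 0.34, adjusted p = 0.0288), with -1.38 in SCC25 and 0.09 in A253, and its control level was 1.40 TPM in SCC25 and 121 TPM in A253. ADM differed by 0.50 (adjusted p = 0.0213) and FAM162A by -0.48 (adjusted p = 0.0181). HIF1A differed by -0.28 (adjusted p = 0.045), and its libraries stood at 308 and 319 CPM in overexpressing SCC25, against 348 and 333 CPM in SCC25 controls, and at 469, 483 and 473 CPM in overexpressing A253, against 425, 424 and 438 CPM in A253 controls. The HIF1A difference was not called with another library scaling or without the filter on low counts (adjusted p up to 0.0766), and that of CA9 was not called by DESeq2.

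**Figure D2:**
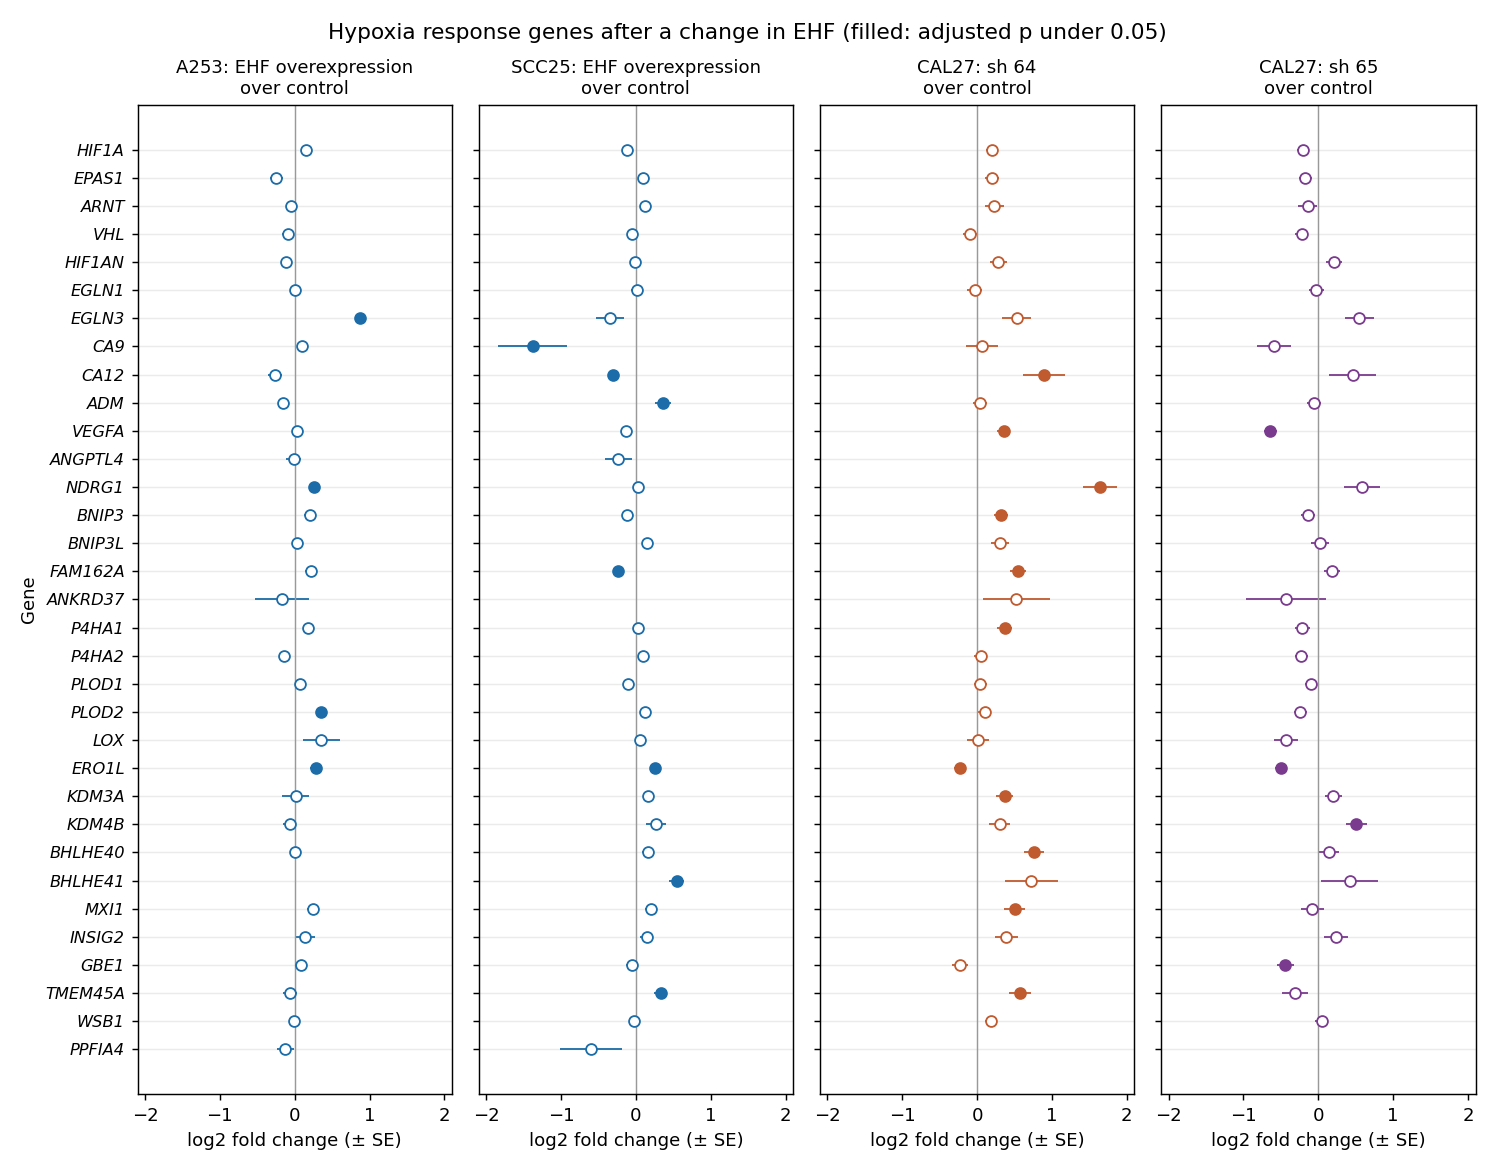
Log2 fold change over the control of the same line, with SE bars, for each gene (rows) in overexpressing A253 and SCC25 cells and in CAL27 cells with sh 64 or sh 65. Filled points passed the threshold of 0.05 on the adjusted p. Genes with too few counts have no point. NDRG1 under sh 64 is the largest rise at 1.64, and CA9 in SCC25 the largest fall at -1.38.

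In CAL27, the mean of both hairpins against control raised 6 of 31 tested genes and lowered 2. NDRG1, EGLN3, BHLHE40, KDM4B, FAM162A and KDM3A rose, and ERO1L and GBE1 fell. ERO1L had 190 and 196 CPM with sh 64 and 161 and 159 CPM with sh 65, against 227 and 225 CPM in controls. All 4 knockdown libraries lay below both controls, and their mean level was 0.776 times that of the controls (log2 change -0.37, SE 0.061, adjusted p = 0.00041). ERO1L was thereby the only one of the 33 genes called in all 3 lines, higher with overexpression in A253 and SCC25 and lower with knockdown in CAL27, although in A253 each of 4 libraries, left out alone, ended the call. NDRG1 had 124 and 114 CPM with sh 64 and 44.5 and 71.1 CPM with sh 65, against 34.4 and 41.4 CPM in controls. The sh 64 libraries stood far above the rest, and the mean rise was 2.16-fold (log2 change 1.11, SE 0.2, adjusted p = 0.0197).

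EGLN3 had 24.0 and 21.1 CPM with sh 64 and 18.2 and 28.3 CPM with sh 65, against 13.6 and 17.3 CPM in controls. Every knockdown library exceeded both controls, and the mean rise was 1.45-fold (adjusted p = 0.0377). EGLN3 and NDRG1 were thus called higher with overexpression in A253 and higher in the mean of both hairpins in CAL27. With the hairpins apart, EGLN3 was called with neither (adjusted p = 0.0788 with sh 64 and 0.0738 with sh 65). NDRG1 was not called with sh 65 (adjusted p = 0.188). FAM162A had 46.7 and 50.1 CPM with sh 64 and 33.4 and 42.0 CPM with sh 65, against 32.3 and 33.7 CPM in controls, and was called higher (log2 change 0.36, adjusted p = 0.0141) where overexpression in SCC25 had lowered it. The histone demethylases KDM3A and KDM4B, which remove methyl groups from lysine 9 of histone H3, both rose, 1.22-fold (adjusted p = 0.0395) and 1.32-fold (adjusted p = 0.0305). GBE1, the glycogen branching enzyme, fell to 0.793 times the control level (adjusted p = 0.016).

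Over all 13629 genes tested in CAL27, 9.88% were called higher and 8.91% lower in this mean, against 6 and 2 of 31. The median log2 change was 0.08, beside 0.0025 over all genes. Most of these calls were lost when either control library was left out, which left a single control library in the fit. The log2 changes kept their sign, at 0.922 to 1.27 for NDRG1 and 0.363 to 0.749 for EGLN3 over the 10 alternatives. Without control replicate 1 only ERO1L of the 8 stayed past the threshold, and without control replicate 2 only ERO1L and BHLHE40 did. In those fits the adjusted p of NDRG1 reached 0.111 and that of EGLN3 0.256, while ERO1L stayed at 0.0199 or below under all 10 alternatives.

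**Figure D3:**
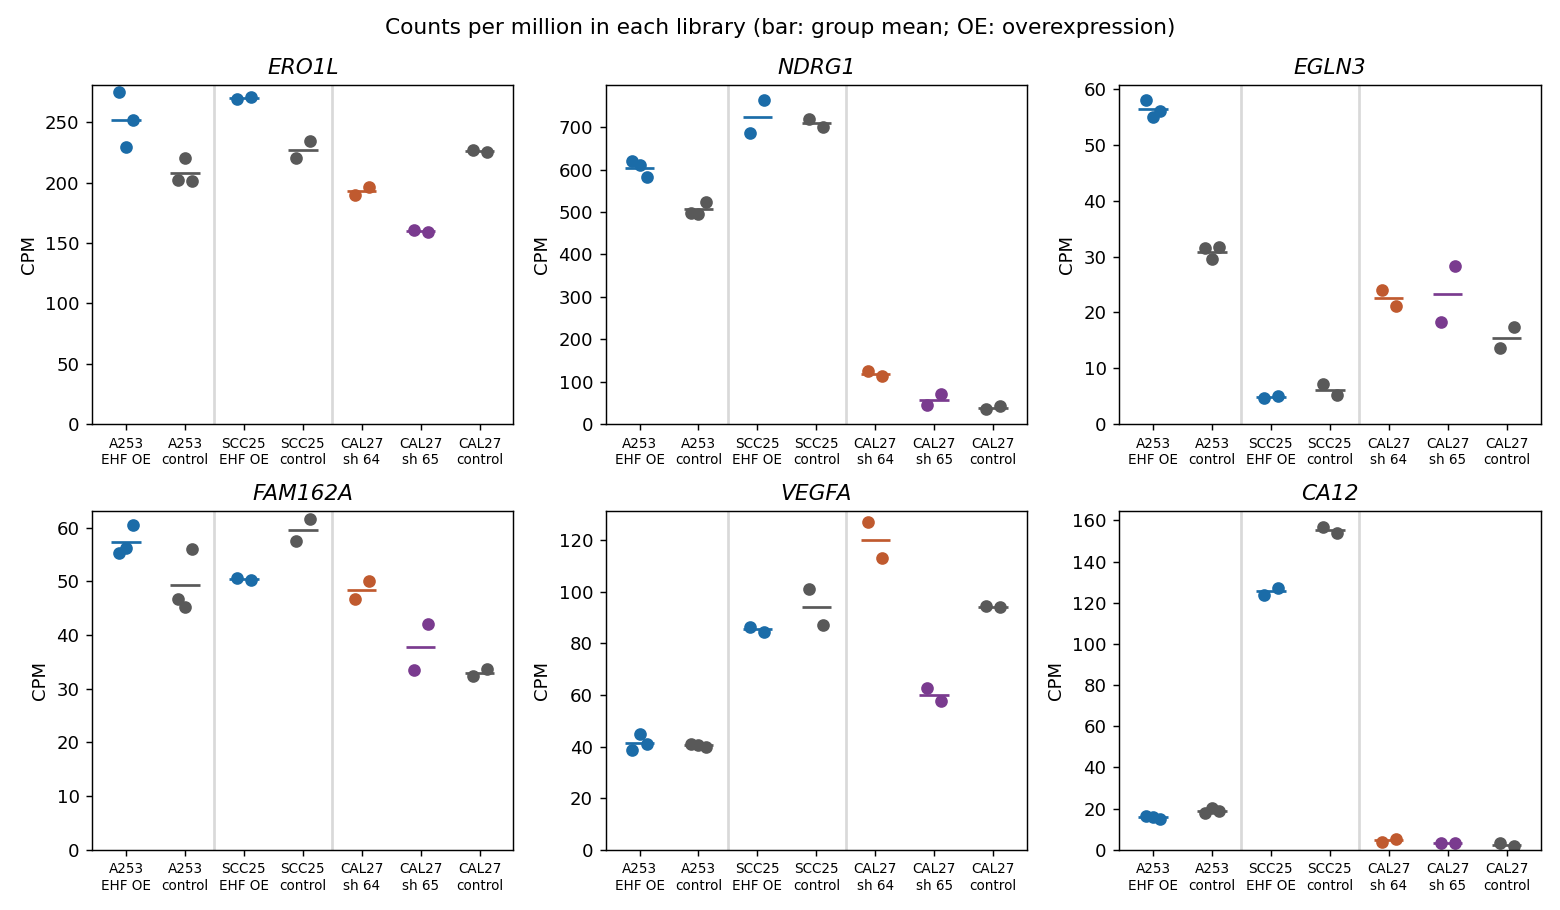
CPM of ERO1L, NDRG1, EGLN3, FAM162A, VEGFA and CA12 in every library (points) with group means (bars), in the order overexpression and control for A253 and SCC25 and sh 64, sh 65 and control for CAL27. ERO1L lies above its controls in overexpressing A253 and SCC25 libraries and below them in all 4 knockdown libraries, at 159 to 196 CPM against 225 and 227 CPM.

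The hairpins were also compared with control one at a time, under names that may be exchanged. With sh 64, 10 of 31 tested genes rose and 1 fell, beside 8.76% of all tested genes higher and 6.89% lower. The rises were NDRG1, CA12, BHLHE40, TMEM45A, FAM162A, MXI1, P4HA1, KDM3A, VEGFA and BNIP3, and the fall was ERO1L. NDRG1 rose 3.11-fold (log2 change 1.64, SE 0.23, adjusted p = 0.00881), and BHLHE40, a repressor related to BHLHE41, rose 1.70-fold (adjusted p = 0.000459). The median log2 change over the 31 genes was 0.30, beside 0.0035 over all genes, and 27 of 31 were positive. With sh 65, 1 gene rose and 3 fell, beside 7.62% of all tested genes higher and 7.01% lower. KDM4B rose 1.42-fold (adjusted p = 0.0227), while VEGFA, ERO1L and GBE1 fell. VEGFA and ERO1L kept these calls under all 10 alternatives, but KDM4B and GBE1 lost theirs with DESeq2 and without sh 65 replicate 1 or either control (adjusted p up to 0.249 and 0.105). The median over the 31 genes was -0.10, beside 0.0058 over all genes. Both comparisons share the same 2 control libraries.

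VEGFA, the main angiogenic growth factor induced by HIF, was called in opposite directions. It had 127 and 113 CPM with sh 64 and 62.7 and 57.6 CPM with sh 65, against 94.3 and 94.0 CPM in controls. The 2 libraries of each hairpin stood on opposite sides of the controls, 1.28-fold higher with sh 64 (adjusted p = 0.00732) and 0.640 times the control level with sh 65 (adjusted p = 6.02e-05). In the mean of both hairpins VEGFA was not called (log2 change -0.15, adjusted p = 0.183). ERO1L fell with each hairpin, to 0.852 times the control level with sh 64 (adjusted p = 0.035) and to 0.707 times with sh 65 (adjusted p = 0.000115). The sh 64 call of ERO1L was lost with DESeq2 and without any one of the sh 64 or control libraries (adjusted p up to 0.235). For sh 64, DESeq2 called 5 genes higher and 0 lower. Without sh 64 replicate 1 only FAM162A and BHLHE40 kept their call, and NDRG1 then had an adjusted p of 0.0524, while VEGFA lost its rise without sh 64 replicate 1 or either control (adjusted p up to 0.114).

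The direct difference between the hairpins, sh 65 minus sh 64, was negative for 28 of 31 genes. It was called lower for 10 and higher for 0, beside 3.13% of 13629 genes called lower and 2.21% called higher, and its median was -0.34, beside 0.0013 over all genes. No gene was higher at an unadjusted p under 0.05 either, and DESeq2 called 8 lower and 0 higher. EHF itself had a log2 difference of -0.16 between the hairpins, which was not called (SE 0.072, adjusted p = 0.23). Its sh 65 libraries, at 444 and 469 CPM, lay below those of sh 64, at 497 and 526 CPM. The part of the EHF level in the hairpin differences was not tested. The 10 genes were spread over roles: the alpha subunits HIF1A and EPAS1, the growth factor VEGFA, the mitophagy receptor BNIP3, the matrix and folding enzymes P4HA1, PLOD2 and ERO1L, the repressors BHLHE40 and MXI1, and TMEM45A.

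VEGFA had the most extreme p of these, with a log2 difference of -0.998 (SE 0.088, adjusted p = 1.18e-06). HIF1A had 654 and 720 CPM with sh 65, against 871 and 948 CPM with sh 64, a log2 difference of -0.40 (SE 0.079, adjusted p = 0.00444). The hairpins did not overlap, and the CAL27 controls lay between them at 753 and 836 CPM. EPAS1 had 78.1 and 78.9 CPM with sh 65, against 95.6 and 109 CPM with sh 64, and controls at 82.6 and 93.5 CPM again lay between (log2 difference -0.37, adjusted p = 0.0204). Neither alpha subunit was called against control under either hairpin, with adjusted p between 0.0808 and 0.227.

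P4HA1, a catalytic subunit of collagen prolyl 4-hydroxylase, had 62.2 and 79.5 CPM with sh 65, against 105 and 108 CPM with sh 64 (log2 difference -0.59, SE 0.11, adjusted p = 0.00284). Controls stood at 76.7 and 86.8 CPM, overlapping the sh 65 libraries. BHLHE40 had 23.4 and 28.5 CPM with sh 65, against 40.4 and 38.9 CPM with sh 64, and controls at 20.3 and 25.7 CPM overlapped those of sh 65 (log2 difference -0.62, adjusted p = 0.00779). TMEM45A had 7.29 and 8.48 CPM with sh 65, against 14.0 and 15.1 CPM with sh 64 (log2 difference -0.88, SE 0.17, adjusted p = 0.00357). Its controls, at 9.51 and 9.90 CPM, fell between the hairpins. MXI1, an antagonist of MYC, had 13.7 and 18.3 CPM with sh 65, against 23.3 and 24.3 CPM with sh 64 (log2 difference -0.58, adjusted p = 0.0242), with controls at 16.0 and 17.3 CPM. BNIP3 differed by -0.46 (adjusted p = 0.00822), PLOD2 by -0.34 (adjusted p = 0.0347) and ERO1L by -0.27 (adjusted p = 0.0373). RefSeq lists 46 pseudogenes named after BNIP3, and how the authors' counting treated reads shared with them was not tested.

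NDRG1 had the largest difference in size, -1.06, but missed the threshold (SE 0.22, adjusted p = 0.0705). The exceptions in sign were EGLN3 at 0.02 (SE 0.19), EGLN1 at 0.01 (SE 0.1) and KDM4B at 0.21 (SE 0.15), none of them called. VEGFA, P4HA1 and TMEM45A kept their call under all 10 alternatives. HIF1A and EPAS1 lost theirs without sh 64 replicate 2 (adjusted p = 0.0671 and 0.159), BNIP3 and BHLHE40 without sh 64 replicate 1 (0.111 and 0.103), MXI1 with DESeq2 and without sh 64 replicate 1 or 2 or sh 65 replicate 1 (up to 0.234), and PLOD2 and ERO1L in 6 and 7 of the alternatives. Fibroblast markers summed to 8.72 and 9.32 CPM with sh 65 and 14.2 and 16.7 CPM with sh 64, and the part of this shift in the differences was not tested.

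**Figure D4:**
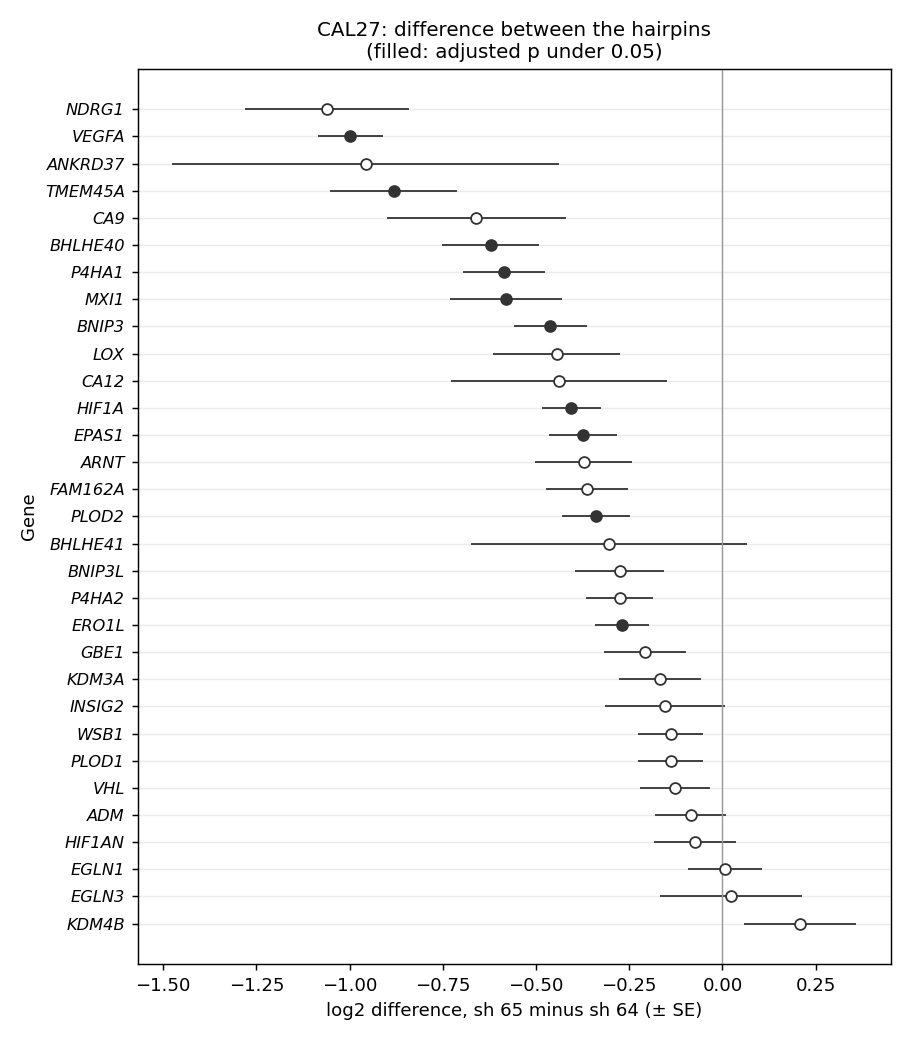
Log2 difference of sh 65 minus sh 64 in CAL27 for 31 genes, with SE bars, ordered by size. Filled points passed the threshold of 0.05 on the adjusted p. The points lie left of 0 for 28 genes, with VEGFA at -0.998 and NDRG1, not called, at -1.06.

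Taken by role over the comparisons with control, the oxygen-sensing core was called in EGLN3 only, in A253 and in the CAL27 mean, but with neither hairpin by itself. HIF1A, EPAS1, ARNT, VHL, HIF1AN and EGLN1 were not called in any of the 5 comparisons of a changed group with its control. ARNT, the shared partner of the alpha subunits, had log2 changes of -0.04 in A253 and 0.13 in SCC25. VHL, the substrate receptor of the ubiquitin ligase, had -0.09 in A253, -0.05 in SCC25 and -0.16 in the CAL27 mean (adjusted p between 0.167 and 0.611). Of the 33 genes, 15 were called in none of the 5 comparisons. Over the 3 line comparisons, 19 genes were called in none, 10 in 1, 3 in 2 and 1 in all 3. Of the 29 tested in every line, 16 were called in none, 9 in 1, 3 in 2 and 1 in all 3, beside 60.8%, 28.5%, 9.14% and 1.61% of 12658 genes tested in every line. The direction of ERO1L over the 3 lines was shared by 55 of those 12658 genes, or 0.435%. Among the 29, 12 genes were called in none of the 5 comparisons, beside 57.9% of the 12658. The genes without a call in these 5 comparisons included the collagen-modifying enzymes P4HA2, PLOD1 and LOX, the mitophagy receptor BNIP3L, and WSB1 and INSIG2. LOX, a lysyl oxidase that cross-links collagen, had 71.7, 49.9 and 46.7 CPM in overexpressing A253 libraries, against 37.8, 54.6 and 38.5 CPM in controls, and the groups overlapped (log2 change 0.36, SE 0.25, adjusted p = 0.567). ANGPTL4 and PPFIA4 in CAL27 and ANKRD37 in SCC25 had too few counts for the test, at 0.848 CPM or below in each library concerned.

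Companion lists give the rest of the pathway, chosen like the members with earlier results known. Over all tested genes, edgeR called 5.03% higher and 2.94% lower in A253, 12.2% and 11.6% in SCC25, and 9.88% and 8.91% in the CAL27 mean. Of the cofactors and regulators of HIF outside the members, 0 rose and 1 fell of 11 tested in A253, 3 rose and 0 fell of 10 in SCC25, and 0 rose and 1 fell of 11 in the CAL27 mean, all by edgeR. At an unadjusted p under 0.05, 1 was higher and 1 lower in A253, 4 higher and 1 lower in SCC25, and 2 higher and 1 lower in CAL27. CITED2, a competitor of HIF for its coactivators, fell in A253 (log2 change -0.36, adjusted p = 0.00801) and rose in SCC25 (log2 change 0.36, adjusted p = 0.00341), and the line difference was called (0.71, adjusted p = 0.00147). ARNT2 fell in CAL27 (log2 change -1.43, adjusted p = 0.000842), at 1.72 ± 0.378 CPM with knockdown (SD, n = 4) and 4.98 ± 1.40 CPM in controls (SD, n = 2). Of 21 glycolytic hypoxia targets, 2 rose and 1 fell in A253, 2 rose and 11 fell in SCC25, and 1 rose and 2 fell in the CAL27 mean. Among the called glycolytic genes PKM, a pyruvate kinase, had the largest rise in A253 (log2 change 0.87, adjusted p = 2.49e-07) and in SCC25 (0.33, adjusted p = 2.78e-05), and SLC2A1, a glucose transporter, in CAL27 (0.52, adjusted p = 2.64e-05). The called fall in A253 was SLC2A3 (log2 change -0.67, adjusted p = 0.0255), at 2.71 CPM with overexpression and 4.44 CPM in controls. The median log2 change of the glycolytic genes in SCC25 was -0.21, where that of the 33 genes was 0.03.

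Of the other hypoxia targets, 1 rose and 2 fell of 23 in A253, 7 rose and 3 fell of 22 in SCC25, and 4 rose and 6 fell of 23 in the CAL27 mean. The shares over all genes were those given for the lists above. IGFBP3, a binding protein of insulin-like growth factors, rose with overexpression in A253 (log2 change 1.72, adjusted p = 2.1e-11) and in SCC25 (2.20, adjusted p = 3.3e-20). Among the called genes in CAL27, CCNG2, a cyclin of the G family, had the largest rise (log2 change 1.06, adjusted p = 0.000366) and EDN1, the vasoconstrictor endothelin, the largest fall (-1.31, adjusted p = 1.01e-06). Between the hairpins, sh 65 minus sh 64, 0 glycolytic targets were called higher and 3 lower of 21, with 1 higher and 5 lower at an unadjusted p under 0.05, and 1 of the other targets was called higher and 4 lower of 23. Over all tested genes, 2.21% were called higher and 3.13% lower. The medians of the glycolytic and other targets were -0.07 and -0.10, beside -0.34 for the 31 hypoxia genes outside glycolysis. Strand settings of the authors' counting are not given in the sources used here, so reads of HIF1A, EGLN3, BHLHE40 and P4HA2 cannot be told apart from those of their annotated antisense genes.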

How the data were processed

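RNA-seq gene counts of 16 libraries from 3 cell lines were used, and the ChIP library and its input were not analysed here. Per the labels' protocols, Trizol RNA was mRNA-enriched and made into TruSeq libraries. The submitters' processing notes name TopHat2 2.1.1, featureCounts 1.5.3, Bowtie 1.1.1, DESeq2 1.12.4 and hg19, with no role given. In the deposited count tables, the authors give unnormalized counts for each gene symbol. The TPM values the authors deposited for A253 and CAL27 gave each gene's relative length. TPM was recomputed from the counts with these lengths in all lines, since the SCC25 table of that name did not hold TPM and was not used. In the CAL27 count table, 696 gene names had been altered, none of them a member, and names were taken by position from the A253 table. The implied lengths of 18450 of 18450 genes agreed between these tables within 0.05 on the log2 scale. The deposited CAL27 count and TPM tables give the hairpin names the other way round. Names from the count table are used, so sh 64 and sh 65 may be exchanged in every statement on them. The labels tie neither name to knockdown 1 or 2.

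Genes were filtered with filterByExpr, TMM scaled the libraries, and edgeR 4.0.16 (R 4.3.3) fitted its quasi-likelihood model (robust) per line, with the 3 CAL27 groups in 1 fit. The effects of SCC25 and A253 were compared by an interaction in a joint fit of 4 groups. P-values are two-sided, adjusted by Benjamini-Hochberg over all tested genes, with a threshold of 0.05. The common coefficient of variation between replicates was 0.08 in A253, 0.0587 in SCC25 and 0.0655 in CAL27. No pair of replicates agreed within sampling noise (chi-square per degree of freedom 2.58 to 17.9). The fitting script was tested on simulated counts. Alternatives were DESeq2-type size factors in edgeR, no filter, DESeq2 1.42.0, the replicate number as a block, and leaving out each library. Values per library are given for genes called in at least 2 lines, for the largest rise and fall in each line, for genes with a called hairpin or line difference of at least 0.5 on the log2 scale, and for HIF1A and EPAS1. Genes given by library outside this rule (PLOD2, CA12 and LOX among them) were chosen after their values were seen. The members, the companion lists and the rule were chosen with earlier results of these data known. Gene symbols were matched to RefSeq tables of GRCh38.p14 for promoter sequence only, with ERO1L found as ERO1A.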

Additional observations from a re-analysis of the deposited data

Results flagged for a closer look

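Genes whose response differed between the hairpins in CAL27, by the direct test of sh 65 minus sh 64, were VEGFA (log2 difference -0.998), TMEM45A (-0.882), BHLHE40 (-0.621), P4HA1 (-0.587), MXI1 (-0.58), BNIP3 (-0.462), HIF1A (-0.405), EPAS1 (-0.373), PLOD2 (-0.339) and ERO1L (-0.269). All 10 were lower with sh 65. Genes whose overexpression effect differed between the lines, SCC25 minus A253, were CA9 (-1.48), EGLN3 (-1.23), FAM162A (-0.476) and HIF1A (-0.279), lower in SCC25, and ADM (0.496), higher in SCC25. The values per library stand with the comparisons above. Dixon's test for a library standing apart needs at least 4 libraries of a group, and was run only on the 4 CAL27 knockdown libraries taken over both hairpins, where it marked no member.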

How the results depend on the processing

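No called direction reversed under any alternative run. With DESeq2-type size factors in edgeR, the member counts stayed within 1.5 times throughout. DESeq2 gave 2 higher and 1 lower in SCC25, where CA9 had no adjusted p, 3 higher and 1 lower in the CAL27 mean, 5 higher and 0 lower for sh 64, and 0 higher for sh 65. Without the filter on low counts, 1 member was lower in A253, and for sh 65 there were 3 higher and 5 lower. Leaving out 1 library gave 2 to 5 higher and 0 to 1 lower in A253, 2 to 6 and 1 to 4 in SCC25, 0 to 7 and 1 to 2 in the CAL27 mean, 2 to 15 and 0 to 1 for sh 64, 0 to 2 and 2 to 6 for sh 65, and 0 higher and 5 to 14 lower for sh 65 minus sh 64. Where this left 1 library in a group, that library was assumed to vary like the others of the fit. The shares over all genes moved too: leaving out 1 library gave 443 to 672 genes higher and 215 to 370 lower in A253, 1120 to 1800 and 1004 to 1839 in SCC25, 562 to 1557 and 375 to 1481 in the CAL27 mean, 547 to 1567 and 310 to 1326 for sh 64, 510 to 1048 and 369 to 978 for sh 65, and 77 to 524 and 186 to 524 between the hairpins. The line difference was not refitted without single libraries. Over all genes, DESeq2 called 270 lower in A253, against 426 by edgeR, 805 higher and 722 lower in SCC25, against 1728 and 1642, 749 and 697 in the CAL27 mean, against 1346 and 1214, and 266 lower in the line difference, against 502. For sh 64 it called 661 higher and 531 lower, against 1194 and 939, for sh 65 583 and 589, against 1038 and 956, and between the hairpins 170 and 276, against 301 and 427. Without the filter 464 genes were higher between the hairpins. The causes were not tested.

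Replicate numbers do not pair the samples: same-numbered A253 libraries correlated at -0.288, -0.0332 and 0.291 in their deviations, SCC25 at -0.0232 and CAL27 between -0.0114 and 0.2, and A253 control 2 correlated best with overexpression 1 (0.442). With the replicate block, member counts were 4 higher and 0 lower in A253, 5 and 3 in SCC25, 7 and 2 in the CAL27 mean, 15 and 1 for sh 64, 2 and 6 for sh 65, and 0 and 13 between the hairpins, and of the called members ERO1L in A253 lost its call. With that block 558 genes of all were higher and 702 lower between the hairpins. Depth limits members with few counts per library, among them CA9 in SCC25 and ANKRD37, PPFIA4, ANGPTL4 and BHLHE41 in CAL27.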
